A study of Mus musculus with 2 samples.

Results

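The let-7 genes that lie outside the Mir99-Mir125 clusters were examined in the gastrocnemius, the large calf muscle, of young mice. They are 9 of the 2202 miRNA genes in the deposited count tables, and they were taken by gene symbol: Mirlet7i and Mirlet7g, which stand alone, Mirlet7a-1, Mirlet7f-1 and Mirlet7d in one cluster, Mirlet7b and Mirlet7c-2 in another, and Mirlet7f-2 and Mir98 in the last. The 2 libraries came from male B6CASTF1/J mice, F1 hybrids of the C57BL/6J and CAST/EiJ strains, at 10 days of age, with no treatment named. The labels number them as biological replicates 1 and 2 from separately numbered animals and give both the same donor entry. There was 1 group, so no condition was compared, and the spread given below is that between these 2 libraries.

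The let-7 miRNAs belong to one of the oldest known miRNA families, found first in Caenorhabditis elegans as a regulator of developmental timing. In mammals they accumulate as cells differentiate and repress growth and stem cell factors such as Lin28a, Lin28b and Hmga2, while the LIN28 proteins bind let-7 precursors and block their maturation. A miRNA recognises its targets mainly through its seed, the bases 2 to 8 from its 5′ end, so genes with the same seed share many predicted targets even where the rest of the molecule differs.

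The mature 5p arms are shown first, with the seed in capitals, because the identity of these arms decides which reads can be given to a single gene. All 9 genes were found in the RefSeq miRNA table (build GRCm38.p6) with both arms, and each hairpin was identical to that in the GENCODE M21 annotation used for the counts. The 9 genes encode 8 distinct 5p arms, since Mirlet7f-1 and Mirlet7f-2 encode the same one.
let-7i-5p: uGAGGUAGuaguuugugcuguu
let-7g-5p: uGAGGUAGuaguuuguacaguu
let-7d-5p: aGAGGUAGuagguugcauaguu
let-7a-5p (Mirlet7a-1): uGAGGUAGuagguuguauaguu
let-7f-5p (Mirlet7f-1, Mirlet7f-2): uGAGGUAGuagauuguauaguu
let-7b-5p: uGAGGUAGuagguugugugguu
let-7c-5p (Mirlet7c-2): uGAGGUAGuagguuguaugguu
miR-98-5p: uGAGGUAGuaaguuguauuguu

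Every 5p arm has 22 bases and the same seed. Between any pair of the 8 arms, 1 to 6 bases differ. With let-7a-5p as reference and positions counted from 1 at the 5′ end, let-7f-5p differs by G12A and let-7c-5p by A19G. The arm let-7b-5p differs by A17G and A19G, and miR-98-5p by G11A and A19U. The arm let-7g-5p differs by G12U and U18C, and let-7i-5p by G12U, A17G, U18C and A19U. The arm let-7d-5p differs by U16C and by U1A, and its first base is the only one before the seed that is not U.

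The 3p arms, which come from the opposite side of the hairpin, are shown because they separate genes whose 5p arms are identical. Capitals again mark bases 2 to 8.
let-7i-3p: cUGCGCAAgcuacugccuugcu
let-7g-3p: aCUGUACAggccacugccuugc
let-7d-3p: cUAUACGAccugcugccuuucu
let-7a-1-3p and let-7c-2-3p: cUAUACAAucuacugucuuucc
let-7f-1-3p: cUAUACAAucuauugccuuccc
let-7f-2-3p: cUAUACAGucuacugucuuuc
let-7b-3p: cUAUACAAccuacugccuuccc
miR-98-3p: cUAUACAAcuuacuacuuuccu

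There were 8 distinct 3p arms and 5 different 3p seeds. Mirlet7a-1, Mirlet7f-1, Mirlet7b, Mirlet7c-2 and Mir98 share 1 of these seeds, and each of the other 4 genes has its own. Mirlet7a-1 and Mirlet7c-2, which lie on different chromosomes, have the same 3p arm from end to end.

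The arms were searched in all 2202 annotated miRNA hairpins. Neither arm of Mirlet7i, Mirlet7g, Mirlet7d, Mirlet7b or Mir98 was found in another hairpin. The 5p arms of Mirlet7f-1 and Mirlet7f-2 are each found in the other, while their 3p arms are found in no other hairpin. Both arms of Mirlet7a-1 recur, the 5p arm in Mirlet7a-2 and the 3p arm in Mirlet7c-2. Both arms of Mirlet7c-2 recur as well, the 5p arm in Mirlet7c-1 and the 3p arm in Mirlet7a-1. In these tables, reads that match several genomic places are counted for no gene, so the genes with a recurring arm can be undercounted.

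Replicate 2 held 12889382 reads, of which 5062714 were counted for miRNA genes, and replicate 1 held 9678334 reads, of which 3999172 were counted. Levels are given as counts per 1000000 of these assigned counts (CPM), with intervals that are exact at 95% and cover counting error only. Each of the 9 let-7 genes reached 10 counts or more in replicate 2 and in replicate 1, as did 14.2% of all miRNA genes in the tables. Skeletal muscle miRNAs, with nearly all of their counts from Mir206, took 8.82% of the assigned counts in replicate 2 and 10.1% in replicate 1. Mir1a and Mir133a, also on this list, have 2 genes each. Copies of their arms were not searched for, so they can be undercounted and the muscle share can be too low. The 6 neural genes of Mir124a and Mir9 had 7 counts together in replicate 2 and 2 in replicate 1. Their arms were not searched for copies either, so these low counts do not show how much neural RNA was present. Endothelial Mir126a was 6.79% and 5.58%, the smooth muscle pair 2.97% and 2.46%, the 4 leukocyte genes 0.0447% and 0.0423%, the erythroid pair 0.409% and 0.168%, and hepatocyte Mir122 0.0272% and 0.0103%, each in replicate 2 and replicate 1.

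The 9 let-7 genes together took about the same share of the assigned miRNA counts in both libraries, and Mirlet7i and Mirlet7g supplied most of it. Replicate 2 gave 15.98% (exact interval 15.95 to 16.01) and replicate 1 gave 15.89% (15.85 to 15.92), for a mean of 15.9% ± 0.066 (SD, n = 2). Mirlet7i and Mirlet7g made up 75.5% of the 9-gene counts in replicate 2 and 75.6% in replicate 1. These shares leave out reads that match several genomic places. Members with a recurring arm can thus hold a larger part of the family than shown. In bulk muscle RNA, a level of this kind cannot tell the number of cells that hold a miRNA from the amount per cell.

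By locus, the order was Mirlet7i, Mirlet7g, the Mirlet7a-1/f-1/d cluster, the Mirlet7b/c-2 cluster and the Mirlet7f-2/Mir98 pair. Mirlet7i held 41.2% of the 9-gene counts in replicate 2 and 41.8% in replicate 1, and Mirlet7g held 34.3% and 33.8% in the same order. The Mirlet7a-1/f-1/d cluster held 13.3% in replicate 2 and 13.2% in replicate 1. The Mirlet7b/c-2 cluster held 7.39% in replicate 2 and 7.22% in replicate 1, and the Mirlet7f-2/Mir98 pair held 3.88% and 3.96%. The libraries differed by less than 1 percentage point at each of the 5 loci.

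**Figure D1:**
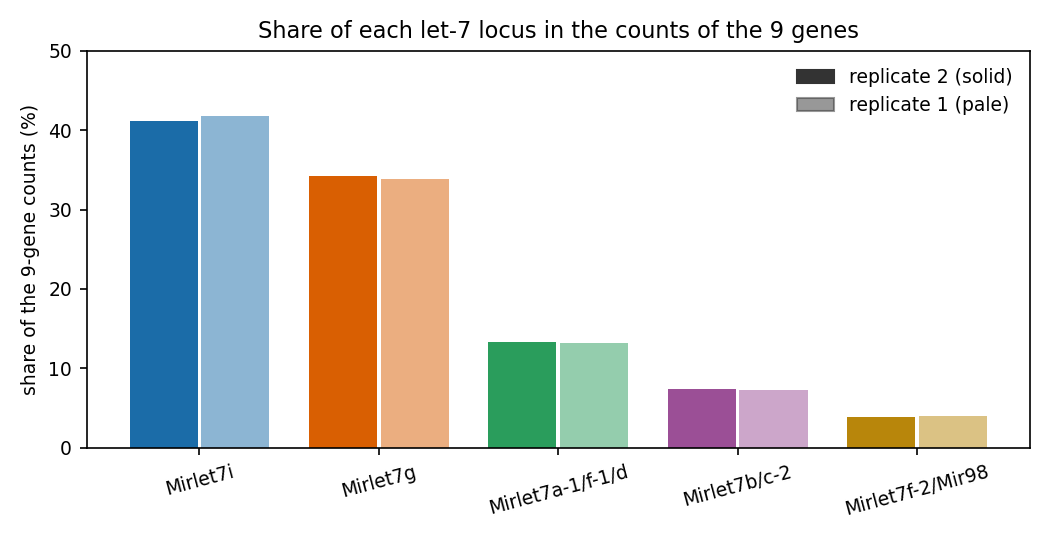
Percent of the summed counts of the 9 let-7 genes held by each of the 5 loci (vertical axis, from 0), with replicate 2 as solid and replicate 1 as pale bars. Mirlet7i stands at 41.2% and 41.8% and Mirlet7g at 34.3% and 33.8%, well above the 3 clusters.

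Mirlet7i, a gene that stands alone on chromosome 10 (chr10:122985640-122985724, mm10, minus strand, gene ID ENSMUSG00000065406.3), had the highest level. It overlaps an exon of D630033A02Rik, a transcribed pseudogene on the same strand. Its level was 65823 CPM in replicate 2, against 66472 CPM in replicate 1, with a mean of 66147 ± 458 CPM, the fourth highest mean of all miRNA genes. Its hairpin is printed because it carries the largest part of the family's counts, with both mature arms in capitals.
Mirlet7i hairpin: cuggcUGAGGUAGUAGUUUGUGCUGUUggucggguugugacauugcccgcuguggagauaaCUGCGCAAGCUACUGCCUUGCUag

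Mirlet7g (chr9:106178840-106178927, mm10, plus strand, ENSMUSG00000065440.1) lies in an intron of Wdr82, whose protein belongs to a histone methyltransferase complex. It had 54764 CPM in replicate 2, against 53680 CPM in replicate 1, with a mean of 54222 ± 767 CPM, seventh among all genes in each library. Both libraries of Mirlet7i lay above both libraries of Mirlet7g, by a count ratio of 1.202 in replicate 2 (exact interval 1.196 to 1.208), against 1.238 in replicate 1 (1.231 to 1.245). Their 5p arms differ at 2 bases, and their longest common stretch of hairpin is 19 nt.
Mirlet7g hairpin: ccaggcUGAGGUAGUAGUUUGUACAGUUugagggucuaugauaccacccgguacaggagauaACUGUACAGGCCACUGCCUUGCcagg

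On chromosome 13, Mirlet7a-1, Mirlet7f-1 and Mirlet7d lie within 2261 bases on the minus strand and overlap exons of 6720427I07Rik, a long intergenic non-coding RNA. Mirlet7d (chr13:48536012-48536114, ENSMUSG00000065453.1) was far above its neighbours, with 20822 CPM in replicate 2, against 20577 CPM in replicate 1. Mirlet7a-1 (chr13:48538179-48538272, ENSMUSG00000065421.3) had 202 CPM in replicate 2, against 211 CPM in replicate 1. Mirlet7f-1 (chr13:48537829-48537917, ENSMUSG00000105621.1) had 178 CPM in replicate 2, against 174 CPM in replicate 1. Mirlet7d therefore took 98.2% of the cluster's counts in each library.

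Within this cluster, counts of Mirlet7d were 103 times those of Mirlet7a-1 in replicate 2 (exact interval 97.0 to 110) and 97.5 times in replicate 1 (91.1 to 104). They were 117 times those of Mirlet7f-1 in replicate 2 and 118 times in replicate 1. These ratios use plain counts of the same library and do not depend on scaling between libraries. The neighbour at a distance of 261 bases, Mirlet7f-1 beside Mirlet7a-1, was lower than Mirlet7a-1 in both libraries. The 5p arms of both low genes recur in other hairpins and no arm of Mirlet7d does, and the part of this in the low counts was not tested.

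On chromosome 15, Mirlet7c-2 and Mirlet7b lie 621 bases apart on the plus strand and overlap an exon of the non-coding gene Lncppara. Mirlet7b (chr15:85707319-85707403, ENSMUSG00000065564.1) had 11481 CPM in replicate 2, against 11085 CPM in replicate 1. Mirlet7c-2 (chr15:85706603-85706697, ENSMUSG00000065608.1) had 332 CPM in replicate 2, against 391 CPM in replicate 1. The 5p arms of the 2 genes differ at 1 base. Counts of Mirlet7b were 34.5 times those of Mirlet7c-2 in replicate 2 (exact interval 32.9 to 36.3) and 28.3 times in replicate 1 (26.9 to 29.8). These intervals do not overlap, but they cover counting error only and not differences in library preparation. Both arms of Mirlet7c-2 recur in other hairpins and no arm of Mirlet7b does. The part of this in the low counts of Mirlet7c-2 was not tested.

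On the X chromosome, Mirlet7f-2 and Mir98 lie 785 bases apart on the plus strand in an intron of Huwe1, which encodes a ubiquitin ligase. Unlike the other clusters, where 1 gene was far above the rest, this pair had counted levels close to each other. Mir98 (chrX:151913214-151913321, ENSMUSG00000065536.2) had 3323 CPM in replicate 2, against 3258 CPM in replicate 1. Mirlet7f-2 (chrX:151912346-151912428, ENSMUSG00000065602.1) had 2884 CPM in replicate 2, against 3026 CPM in replicate 1. The count ratio of Mir98 to Mirlet7f-2 was 1.152 in replicate 2 (counting interval 1.127 to 1.178), against 1.077 in replicate 1 (1.050 to 1.104). These intervals do not overlap. The 5p arm of Mirlet7f-2 recurs in another hairpin and no arm of Mir98 does. The part of this in the closeness of the pair was not tested.

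From high to low, the mean levels were Mirlet7i, Mirlet7g, Mirlet7d (20699 ± 174 CPM), Mirlet7b (11283 ± 280), Mir98 (3291 ± 45), Mirlet7f-2 (2955 ± 100), Mirlet7c-2 (362 ± 42), Mirlet7a-1 (206 ± 6.5) and Mirlet7f-1 (176 ± 2.8), each as SD with n = 2. For all 8 pairs of neighbours in this order, both libraries of the higher gene lay above both libraries of the lower one. The order is given as a description and was not tested. The closest neighbours were Mir98 and Mirlet7f-2, whose means differ 1.11-fold, and Mirlet7a-1 and Mirlet7f-1, whose means differ 1.17-fold. A read in such a library covers a mature miRNA rather than a part of a long transcript, so the counts were not divided by length. Per base of hairpin, Mirlet7f-2 (83 bases) had 35.6 ± 1.2 CPM and Mir98 (108 bases) had 30.5 ± 0.42 CPM, which turns this pair round, while the other 7 neighbouring pairs kept their order. Mirlet7i, Mirlet7g, Mirlet7d and Mirlet7b were among the 20 highest genes of the tables, and the lowest member, Mirlet7f-1, ranked 147. The median level of the 9 genes was 3291 CPM, against 135 CPM over the 313 detected genes.

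**Figure D2:**
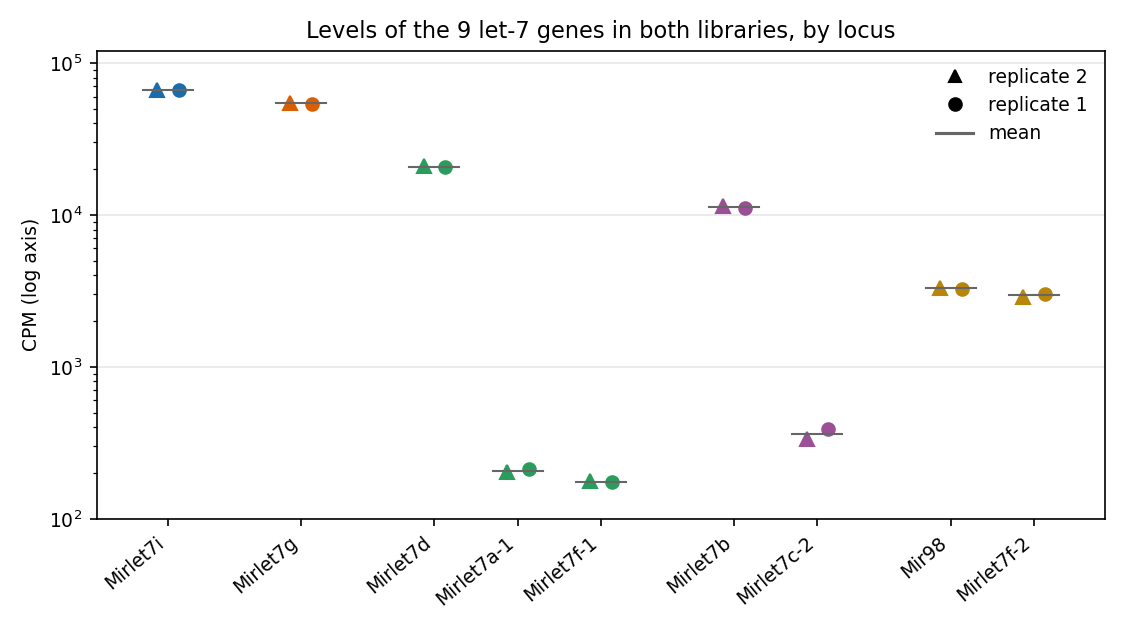
CPM on a log axis for each let-7 gene, grouped and coloured by locus, with replicate 2 as triangles, replicate 1 as circles and the mean as a line. The libraries nearly coincide for each gene, while levels within the cluster of Mirlet7d span from 20699 to 176 CPM.

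The genes were also sorted by whether their arms recur in other hairpins. The 5 genes with no recurring arm held 97.7% ± 0.10 of the 9-gene counts (SD, n = 2), with mean levels from 3291 to 66147 CPM. Mirlet7f-2 and Mirlet7f-1, with a recurring 5p arm, held 1.97% ± 0.069, at 2955 and 176 CPM. Mirlet7c-2 and Mirlet7a-1, with both arms recurring, held 0.357% ± 0.032, at 362 and 206 CPM. The genes with no recurring arm thus lay above the other 4, while the last 2 classes overlap in level. This is a description of 9 genes, and it was not tested how far the counting lowered the values of the last 4. Reads with several genomic matches, from all sources, numbered 6186505 in replicate 2 and 4548703 in replicate 1, which is 7.65 and 7.16 times the counts of the 9 genes. The tables do not say which miRNAs these reads hold.

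Mirlet7f-1 and Mirlet7f-2 encode the same 5p arm, and each has a 3p arm of its own. Counts of Mirlet7f-2 were 16.2 times those of Mirlet7f-1 in replicate 2 (exact interval 15.2 to 17.4) and 17.4 times in replicate 1 (16.1 to 18.8). A read of the whole 5p arm matches both genes and is counted for neither, so this ratio compares other reads only. It does not give the relative level of these genes. The tables count per hairpin and do not separate the arms.

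**Figure D3:**
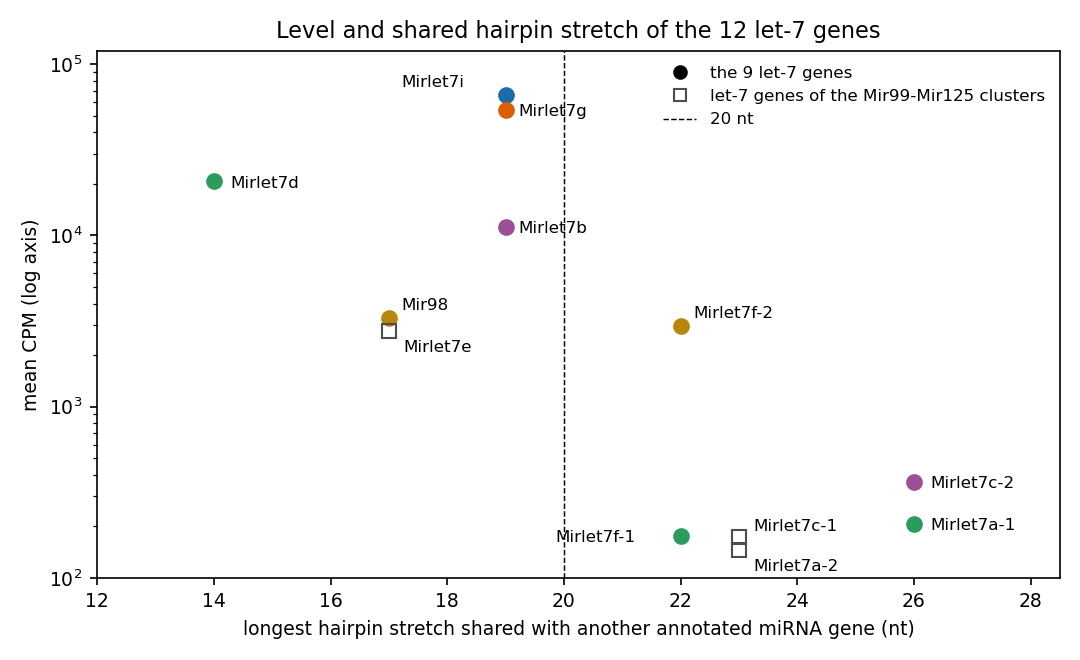
Mean CPM on a log axis against the longest hairpin stretch (nt) common to each gene and another annotated hairpin, with circles for the 9 genes and open squares for the 3 let-7 genes of the Mir99-Mir125 clusters. Of the 6 genes right of the 20 nt line, Mirlet7f-2 is at 2955 CPM and the others are between 145 and 362 CPM, while the genes left of it are at 2755 CPM or above.

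The let-7 genes of the Mir99-Mir125 clusters, Mirlet7a-2, Mirlet7c-1 and Mirlet7e, added little to the counts. The 9 genes held 98.1% ± 0.044 of the counts of all 12 (SD, n = 2). Mirlet7a-2 and Mirlet7c-1 have recurring 5p arms and can be undercounted, as can members among the 9. The part of this in the share was not tested. Mirlet7e, whose 5p arm recurs in no other hairpin, had 2702 CPM in replicate 2, against 2808 CPM in replicate 1. Mirlet7a-1 had 1.29 times the counts of Mirlet7a-2 in replicate 2 (exact interval 1.17 to 1.41) and 1.58 times in replicate 1 (1.42 to 1.76), and these genes encode the same 5p arm. Mirlet7c-2 had 1.95 times the counts of Mirlet7c-1 in replicate 2 (1.79 to 2.12) and 2.26 times in replicate 1 (2.06 to 2.47). Reads of a whole 5p arm match both genes of such a pair and are counted for neither, so these ratios compare other reads only. The 3p arms of Mirlet7a-1 and Mirlet7c-2 recur as well, unlike those of Mirlet7a-2 and Mirlet7c-1. The ratios thus do not give the relative levels of these genes.

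The let-7 seed occurs in 13 of the 1738 mature entries of the RefSeq table, 9 of them from the genes described here. Mirlet7a-2, whose hairpin also holds let-7a-5p, is not among these entries. Of the other 4, Mirlet7c-1 and Mirlet7e were detected, while Mir1961, which was named after its values were seen, and Mir7k had no count in either library. With the one-sided 95% limit, a count of 0 allows up to 3 counts, or 0.593 CPM in replicate 2, against 0.75 CPM in replicate 1. Mir7j, which is listed as let-7j but has another seed, had 29.0 CPM in replicate 2, against 35.0 CPM in replicate 1. Mir202, a distant relative, had no count.

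Genes listed for a described link with let-7 or with Lin28 were also present, with levels within and below the range of the 9 let-7 genes. The mammalian homologues of lin-4, another timing miRNA of Caenorhabditis elegans, also repress Lin28, and all 3 of them were detected. Mir125a had 967 CPM in replicate 2, against 950 CPM in replicate 1, Mir125b-1 had 286 and 287 CPM, and Mir125b-2 had 74.3 and 84.8 CPM. The 3 together took 0.133% of the assigned counts in replicate 2 and 0.132% in replicate 1. Copies of their arms were not searched for, so these genes, and the 2 of Mir125b above all, can be undercounted. Mir675, made from H19, a long non-coding RNA described to bind let-7, had 36.7 CPM in replicate 2, against 41.0 CPM in replicate 1.

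The levels of the let-7 genes matched closely between the libraries. With TMM scaling, which sets the libraries on a common scale through the bulk of their genes, none of the 9 genes differed by 1.2-fold or more between replicate 2 and replicate 1, beside 35.2% of the 332 miRNA genes whose mean reached 10 counts. The let-7 count was also 0 with DESeq2 size factors (35.2% of all such genes), with plain totals (37.7%) and with a limit of 1.5-fold (13.9%). It was 0 of 9 among the 525 genes with a count in each library (57.1%). In the column counted without regard to strand it was 0 of the 8 let-7 genes that have counts there, beside 35.2% of 304 genes. The ratio spreads more at low levels, so genes of like level were also counted, a choice made after the values were seen. Of the 70 genes of at least 1000 CPM, 8.57% passed 1.2-fold, and 0 of 6 let-7 genes at that level did. Of the 103 genes from 100 to 1000 CPM, 14.6% passed, and 0 of 3 let-7 genes did. Against these shares at like level, a count of 0 does not set the let-7 genes apart.

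The log2 ratios of replicate 2 over replicate 1 ran from -0.18 for Mirlet7c-2 to 0.11 for Mirlet7b. The interval of Mirlet7c-2 was -0.28 to -0.08 and that of Mirlet7b was 0.09 to 0.13. Genes of the same cluster thus lay on opposite sides of 0. These intervals cover counting error only and not library preparation, and both arms of Mirlet7c-2 recur in other hairpins. Mirlet7g (0.09), Mir98 (0.09), Mirlet7d (0.08) and Mirlet7i (0.04) were slightly higher in replicate 2, with intervals above 0 under TMM scaling. The intervals do not cover the choice of scaling. With plain library totals these genes were at 0.03, 0.03, 0.02 and -0.01, in the same order. The intervals of Mirlet7f-1 (0.09), Mirlet7f-2 (-0.01) and Mirlet7a-1 (-0.01) included 0. The median over the 9 genes was 0.08, and over all 332 genes it was 0.00. The erythroid Mir451a (log2 1.37) and the hepatocyte Mir122 (log2 1.46) were higher in replicate 2 by far more than any let-7 gene, and their part in the let-7 values was not tested.

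**Figure D4:**
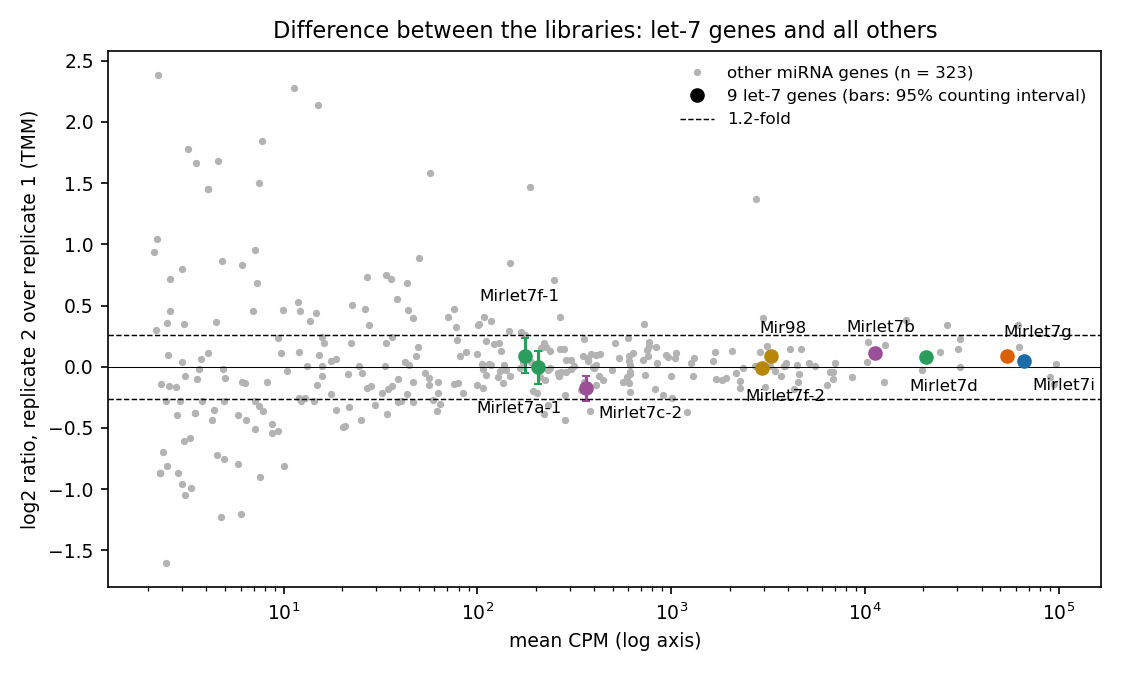
Log2 ratio of replicate 2 over replicate 1 with TMM scaling against mean CPM on a log axis, with the 9 let-7 genes in colour (bars are exact 95% counting intervals), the other miRNA genes in grey and dashed lines at 1.2-fold. The let-7 genes lie between -0.18 and 0.11, inside both lines.

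For each let-7 gene, the miRNA gene outside the family most like it in level was found by the distance of log2(CPM + 1) over the 2 libraries. Mir411 was nearest to Mirlet7i and to Mirlet7g, Mir99a to Mirlet7d, Mir382 to Mirlet7b, Mir532 to Mir98, Mir341 to Mirlet7f-2, Mir500 to Mirlet7c-2, Mir410 to Mirlet7a-1 and Mir101b to Mirlet7f-1. The smallest distance was 0.0033 for Mir341, with 2889 CPM in replicate 2, against 3031 CPM in replicate 1, and the largest was 0.30 for Mir411 from Mirlet7g. With 2 libraries, likeness here means like level only.

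Few reads lay on the opposite strand. On the strand opposite to the let-7 genes, Mirlet7b had 5 reads in replicate 2 and 4 in replicate 1, and no other member had more than 1 in a library. Mirlet7f-1 overlaps Gm24111, an annotated miRNA gene on the opposite strand, which had 1 read of its own in replicate 2 and 0 in replicate 1. In the column counted without regard to strand, the reads of Mirlet7f-1 are ambiguous between these genes, and it is listed there at 0 in both libraries, although the sense column holds 900 reads in replicate 2 and 695 in replicate 1. The counts of the other 8 genes differ by at most 5 reads a library between these columns. Their CPM are higher in the unstranded one, with Mirlet7i at a mean of 80723 CPM, against 66147 CPM in the sense column, because its total leaves out reads at overlapping miRNA genes.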

How the data were processed

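Small RNA libraries of 2 gastrocnemius samples were analysed. The authors deposited raw counts per miRNA gene for each library, in 3 columns (without regard to strand, and 1 for each strand), with 4 summary rows. The accompanying deposited text names mm10 as the assembly and GENCODE M21 as the annotation. The aligner and the counter were not given in the sources used here. The column with the sense strand of the genes was used. The summary rows, 60.7% of the reads of replicate 2 and 58.7% of those of replicate 1, were left out of the totals. They include reads with several genomic matches, so genes with recurring sequence can be undercounted.

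All 2202 gene IDs were matched in M21, which supplied symbols, coordinates (1-based, mm10) and overlapping genes. CPM used plain totals. Intervals are exact at 95% (Clopper-Pearson for shares and ratios) and cover counting error only, since the tables hold no molecular identifiers. Ratios between the libraries used edgeR's TMM factors over genes whose mean reached 10 counts, with no test, because the group has 2 samples. The ratio formula and its interval were also tried on simulated counts with counting error only. The scale factor was given there, so the TMM scaling itself was not tried. Alternatives were DESeq2 size factors, plain totals, a 1.5-fold limit, other filters, the unstranded column, all reads as denominator, and each library alone. Mature sequences came from the RefSeq table (GRCm38.p6) and were searched in the M21 hairpins only. No genome was searched.

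All 9 members are named, with fixed lists of the other let-7 genes, the lin-4 homologues, Mir675 and cell type markers, and the non-family gene nearest in level to each member. The members and lists were chosen with earlier results of these data known. Software was Python 3.11.15 (pandas 2.3.3, numpy 2.4.6, scipy 1.17.1, matplotlib 3.10.9) and R 4.3.3 (edgeR 4.0.16, DESeq2 1.42.0).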

Additional observations from a re-analysis of the deposited data

Results flagged for a closer look

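The values given here lie in data that the levels do not use. In replicate 2, 48.0% of the reads matched several genomic places (exact interval 47.97 to 48.02), and in replicate 1 it was 47.0% (46.97 to 47.03). On the strand opposite to Mirlet7b, 5 reads in replicate 2 and 4 in replicate 1 exceeded the 3 reads that a count of 0 allows, beside 58126 and 44329 reads on its own strand.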

How the results depend on the processing

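The share of the 9 genes was 15.9% of assigned counts, and it was 15.89% to 15.98% with 1 library left out and 15.9% with totals over genes of at least 10 counts. It was 19.4% in the unstranded column, whose total leaves out reads at overlapping miRNA genes, and 6.42% of all reads. With only the 5 genes whose 5p arm recurs nowhere, Mirlet7i held 42.5%, Mirlet7g 34.8%, the locus of Mirlet7d 13.3% and that of Mir98 2.11%, the last because Mirlet7f-2 drops out. In the unstranded column the locus of Mirlet7d held 13.1%, since Mirlet7f-1 is at 0 there. The other locus shares moved by less than the SD under these settings. Each library alone gave 41.2% and 41.8% for Mirlet7i. The count of let-7 genes past 1.2-fold was 0 of 9 with TMM, DESeq2 size factors, plain totals, a 1.5-fold limit and all genes with a count, and 0 of 8 in the unstranded column, where Mirlet7f-1 has no count. The order by level, 8 of 8 neighbouring pairs, held per base of hairpin for 7 of 8 and in the unstranded column for the 7 pairs without Mirlet7f-1, both chosen after seeing the data. No paired analysis was possible because the series holds 1 group. Levels and their order were not tested, with 2 libraries, and counting error relative to the level is largest at Mirlet7f-1, at 166 to 190 CPM in replicate 2 and 161 to 187 CPM in replicate 1.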
